A study of Chlamydomonas reinhardtii with 90 samples.

Results

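A set of 112 genes of the green alga Chlamydomonas reinhardtii had low transcript levels through 24 h at 40°C. They were 112 of 15541 genes that passed a filter on low counts, which is 0.721%, and the deposited table held 17741 genes. A gene entered the set when its mean log2 CPM (counts per 1000000, on a log2 scale with TMM normalisation) was 2 or more below the pre-heat mean of the 40°C treatment at each of 0.5, 1, 2, 4, 8, 16 and 24 h at 40°C. The genes were thus selected on their values in the 40°C heat and 40°C pre-heat libraries, so those values are given as a description and none of them was tested.

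The cultures were of the wild-type strain CC-1690 (21gr, mating type plus), a unicellular alga with 2 flagella, grown in photobioreactors in acetate-containing TAP medium under constant light. Turbidostat control kept their density within a set range. Each treatment had 15 groups of 3 biological replicates (A, B and C): pre-heat, the moment the high temperature was reached (0 h), 0.5 to 24 h of heat at 35°C or 40°C, and 0 to 48 h of recovery at the pre-heat temperature. All groups shared the strain, medium and light. The 35°C and 40°C treatments used separate cultures, each with its own pre-heat libraries, so temperature and culture set cannot be told apart in a comparison between them.

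Chlamydomonas divides by multiple fission: a cell grows in G1, then runs through rapid rounds of DNA replication and division, and the daughters hatch from the mother wall. B-type cyclins, replication proteins and the chloroplast division ring (FtsZ and Min proteins) are made in that division phase, and new walls and flagella are built around it. The wall is an extracellular matrix of hydroxyproline-rich glycoproteins, and pherophorins are 1 family of its proteins. In bulk RNA from a culture, fewer cells in the division phase and less RNA of these genes per cell cannot be told apart.

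Libraries held 10872030 to 35917831 counted reads, and HTSeq counts were tested after TMM normalisation. In 1 library, replicate B of 16 h at 40°C, the members lay a median 1.91 log2 units above the other replicates, and 76 of 112 were more than 1 above, against 7.69% of all genes. Replicate B of 24 h at 40°C lay 0.41 above, with 35 members more than 1 above (2.68% of all genes). Without these 2 libraries the selection gave 113 genes, 109 of them in the set. In the 35°C treatment replicate A was the higher library for the members at several times. It lay a median 0.90 log2 units above the group mean after 2 h of heat, with 52 members more than 1 above (5.09% of all genes). The same values were 1.03 and 61 (4.88%) after 4 h, 1.04 and 59 (4.63%) after 24 h, and 1.19 and 67 (5.25%) when recovery began (0 h). Replicate B of 0 h of recovery lay below by 0.97, with 53 members more than 1 below (4.82% of all genes). Without replicate A, 79 members were called lower at 2 h of 35°C and 60 at 24 h, against 75 and 57 with it. For 4 h and 0 h of recovery its part was not tested.

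Over the 112 members, the median difference from 40°C pre-heat was -0.82 log2 units on reaching 40°C. It was -2.80 after 0.5 h, -3.82 after 2 h, -4.74 after 8 h and -4.12 after 24 h. For 71 members the lowest of the 7 means was at 8 h. Of the 21 libraries from 0.5 to 24 h, replicate B of 16 h held the fewest members at or under the threshold, 77, and the others held 93 to 112 (3.83% to 12.8% of all genes over the 21 libraries). In 44 members every one of the 21 libraries was at or under it, and in 54 the 20 libraries without replicate B of 16 h were. The genes just inside the rule were Cre12.g486750, whose highest mean difference was -2.002 at 0.5 h, HFO8 with -2.011 at 4 h and Cre12.g554100 with -2.017 at 4 h. Those just outside, Cre03.g204913, Cre06.g256650 and Cre16.g675076, had -1.998, -1.994 and -1.993.

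**Figure D1:**
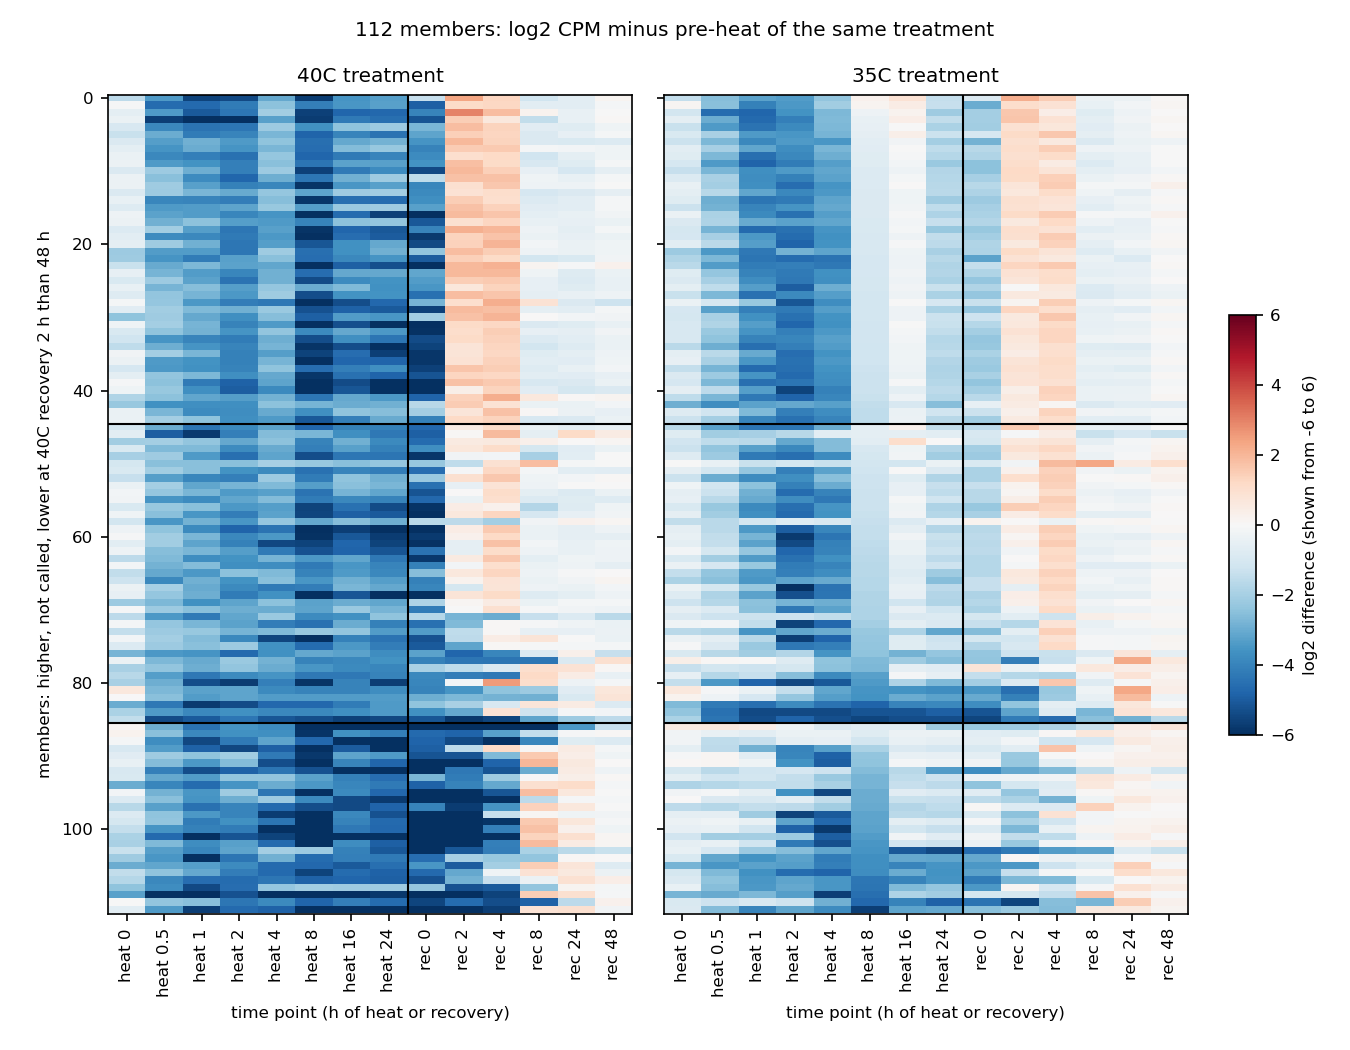
Each row is 1 of the 112 members and each column 1 time point (h of heat or recovery), with colour for log2 CPM minus the pre-heat mean of the same treatment, shown from -6 to 6, and 40°C on the left and 35°C on the right. Black lines divide the members by the 40°C recovery test (45 higher, 41 not called and 26 lower at 2 h than at 48 h). The 7 columns that chose the members are blue throughout at 40°C. At 2 and 4 h of 40°C recovery the blue is deepest in the 26 lower members, which at 2 h follows from the grouping.

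Before heat, the members ranged from 0.0384 to 483 TPM (transcripts per 1000000, scaled for gene length) in the 40°C treatment, with a median of 2.54. For 27 of them the mean was under 1 TPM, and for 45 it was 5 or more. A symbol was given for 15 members, as for 1621 of the 15541 genes. 9 of these 15 were in a list of 122 genes for DNA synthesis and the cell cycle, CYCB1, RIR2, MIND1, FTSZ1, FTSZ2, MINE2, SMC2, CDC45 and MCM3. The list comes in part from tables the study chose on these samples, so its count is not independent evidence. The other symbols were PHC5 and PHC22 of the cell wall, FMG1-B of the flagellar membrane, FEA1 of iron assimilation, the superoxide dismutase MSD3 and the histone gene HFO8.

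CYCB1, a B-type cyclin that acts at mitosis, was at 200, 152 and 206 TPM before the 40°C treatment in replicates A, B and C. At 8 h of 40°C it was at 0.563, 2.81 and 0.911 TPM, and at 16 h at 0.51, 75.9 and 2.35 TPM. The 16 h value of replicate B stood far from the other replicates, and all 3 libraries at both times were below those before heat. RIR2, the small subunit of ribonucleotide reductase, which makes deoxynucleotides for DNA replication, went from 53.6, 43.8 and 61.7 TPM to 3.1, 1.9 and 1.31 TPM at 8 h. For both genes the 8 h libraries lay below all pre-heat libraries, a separation that the selection itself favours.

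The chloroplast divides once per cell division, by a contractile ring of FtsZ proteins placed by Min proteins. MIND1, which helps place the ring, was at 56.9, 40.9 and 56.1 TPM before heat and at 1.48, 1.17 and 0.394 TPM at 8 h of 40°C. FTSZ1, a ring protein, was at 15.6, 12.3 and 14.2 TPM before heat and at 1.48, 0.607 and 0.337 TPM at 8 h. Their levels at 8 h were low in every library. FTSZ2 and MINE2, from the same division machinery, had means of 11.1 and 11.4 TPM before heat. SMC2, a condensin subunit that compacts chromosomes, and CDC45 and MCM3, parts of the replicative helicase, were at 5.09, 8.92 and 13.3 TPM.

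FMG1-B, the major glycoprotein of the flagellar membrane, had the highest level of all members before heat, 391, 446 and 612 TPM. It was at 0.339, 0.554 and 0.125 TPM at 8 h of 40°C and at 0.172, 0.507 and 0.102 TPM at 24 h. None of the libraries at 8, 16 or 24 h reached 1 TPM, which includes both B libraries that stood apart for other members. PHC22, a pherophorin, was at 64.1, 46.6 and 76.7 TPM before heat, at 0.0644, 0 and 0.0829 TPM at 8 h and at 1.3, 65.1 and 0.992 TPM at 16 h. Replicate B of 16 h lay within its pre-heat range, and replicate B of 24 h was at 25.8 TPM against 0.823 and 0.687. PHC5, another pherophorin, was at 64.5, 79.5 and 74.1 TPM before heat and at 1.05, 2.09 and 1.45 TPM at 24 h. Pherophorins form a large family, and reads were kept only with 1 locus, so copies alike in sequence may share or lose reads.

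FEA1, a periplasmic protein that takes part in iron assimilation, was at 84.9, 96.9 and 141 TPM before the 40°C treatment and at 2.03, 31.6 and 4.79 TPM at 24 h. Its B library of 24 h was again the highest, and all 3 were below pre-heat. MSD3, a manganese superoxide dismutase, which turns superoxide into hydrogen peroxide, went from 5.56, 5.14 and 7.59 TPM to 0.098, 0.118 and 0.0252 TPM at 8 h. HFO8, a histone H4 gene, was the lowest member, at 0.0192, 0.0492 and 0.0468 TPM before heat. Histone genes have near-identical copies, so its count is uncertain.

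**Figure D2:**
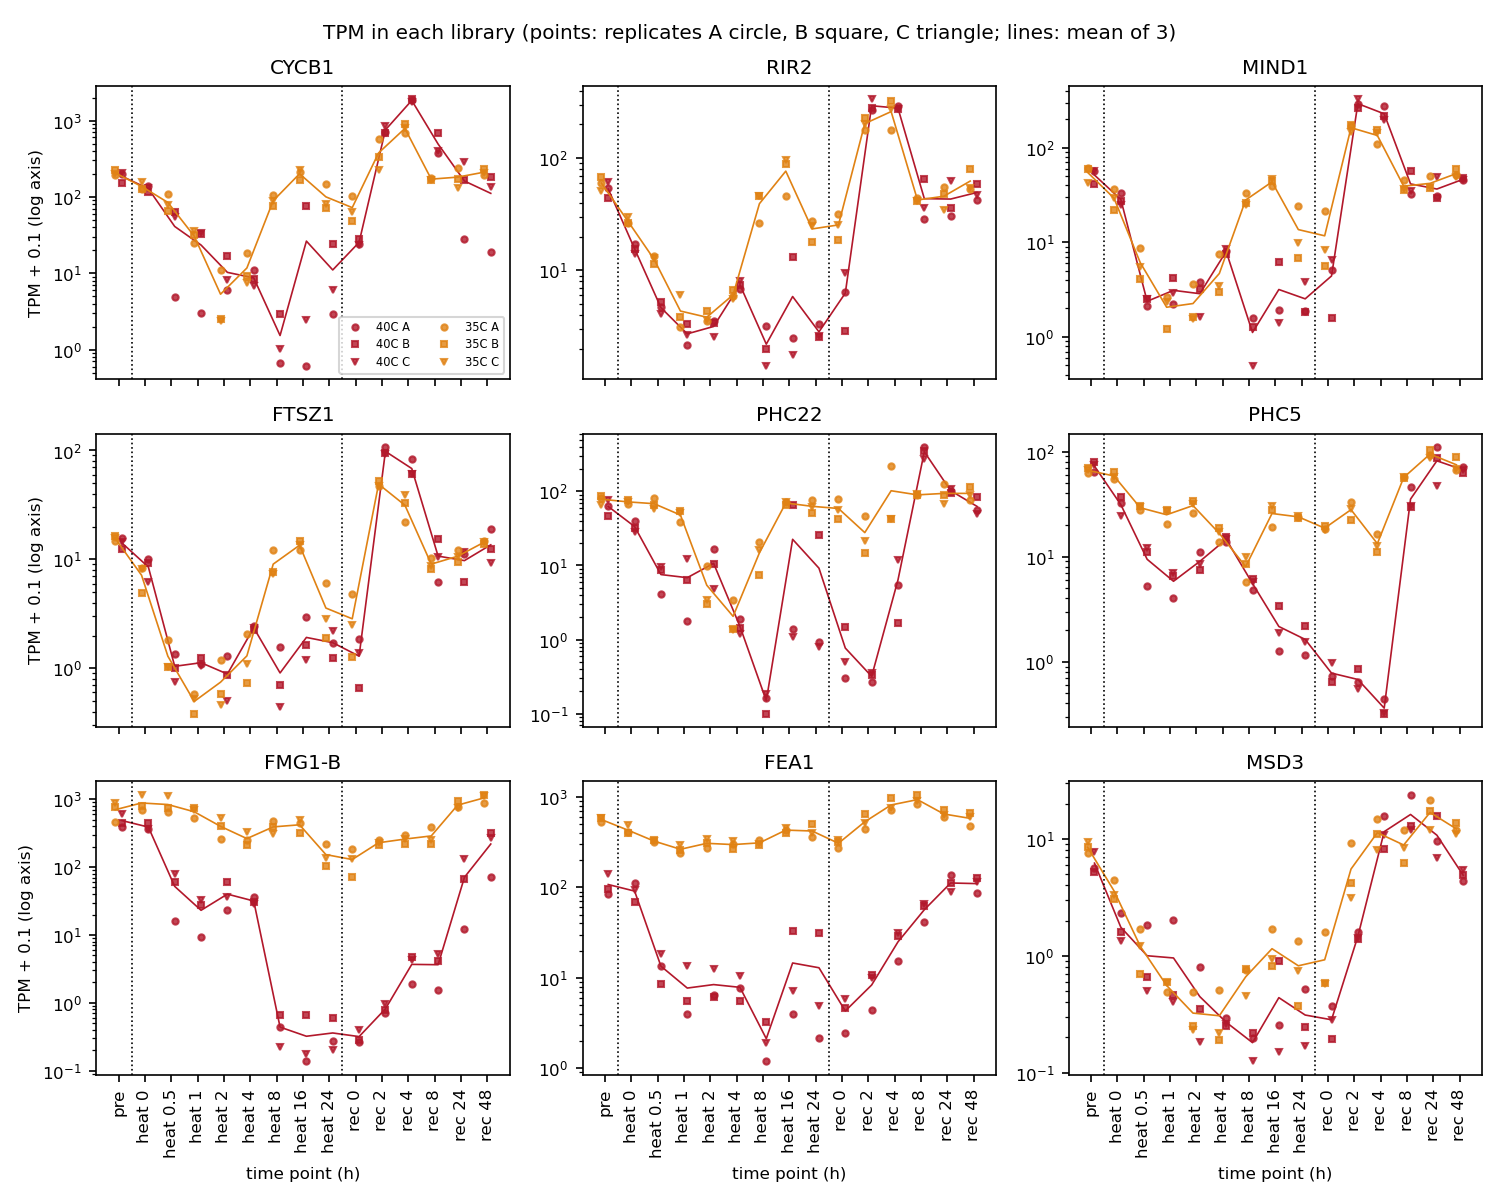
TPM + 0.1 on a log axis in each library against time point (h), for 9 named members, with 40°C in red and 35°C in orange, a symbol per replicate and lines at the mean of 3. FMG1-B stayed under 1 TPM from 8 h of 40°C to 2 h of recovery, while at 35°C its lowest heat library was at 103 TPM.

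The 35°C libraries took no part in the selection and ask whether the same genes fell in moderate heat. Most did for part of the day: against the 35°C pre-heat libraries, 58 of 112 members were called lower after 0.5 h (5.75% of all genes), 69 after 1 h (7.14%), 75 after 2 h (6.38%) and 79 after 4 h (6.18%). The count was 46 after 8 h (4.34%), 15 after 16 h (1.37%) and 57 after 24 h (2.97%), and it was 16 when 35°C was reached (4.16%). These time points share the pre-heat libraries and are not independent. A call needed an adjusted p under 0.05 in edgeR's quasi-likelihood F-test (Benjamini-Hochberg over all genes), a log2 fold change beyond 1 and a mean difference of 1 TPM or more.

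No member was called higher at any of the 8 times of 35°C heat, where 3.72%, 3.22%, 2.91%, 2.52%, 2.36%, 2.32%, 1.92% and 1.57% of all genes were, in order of time. At 0.5, 2 and 24 h the unadjusted p was under 0.05 for 0 members in that direction, and DESeq2 called 0. Over the whole of 35°C heat 84 members were called lower at 1 or more times (13.8% of all genes, and 7.79% were higher), 6 at all 8, and 28 at none. Of those 28, 26 had a mean under 1 TPM before heat, where a fall of 1 TPM cannot occur. Without the TPM criterion 86 members were lower at 0.5 h (9.9% of all genes), 100 at 2 h (11.1%) and 90 at 24 h (5.95%). The other members called at none were FEA1 and Cre12.g506750.

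**Figure D3:**
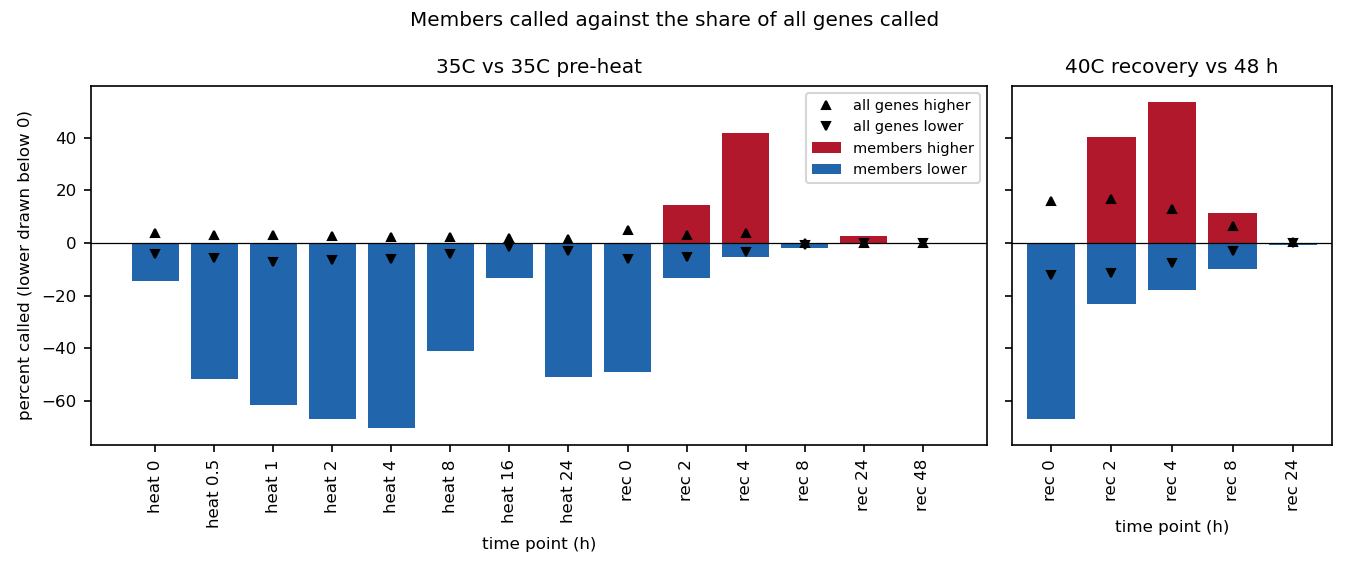
Bars show the percent of the 112 members called higher (above 0) or lower (below 0) at each time point (h), and triangles the percent of all 15541 genes, for 35°C against its pre-heat libraries and for 40°C recovery against 48 h of recovery. In 35°C heat no bar rises above 0, and the bar below it is shortest at 16 h, with 15 members lower.

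The cell division genes fell at 2 h of 35°C and were near their pre-heat level at 16 h. CYCB1 was at 193, 225 and 199 TPM before heat, at 11, 2.43 and 2.26 TPM at 2 h and at 211, 168 and 223 TPM at 16 h. The 2 h libraries lay far below the others, and the 16 h libraries overlapped those before heat. The fold change at 2 h was -4.92 ± 0.84 on the log2 scale (SE, n = 3 against 3, edgeR adjusted p = 2.17e-06), and at 16 h it was 0.01 ± 0.68 (edgeR adjusted p = 0.996). FTSZ1 was at 14.5, 16.3 and 15.6 TPM before heat, at 1.09, 0.48 and 0.364 TPM at 2 h and at 12.2, 14.6 and 13.4 TPM at 16 h. At 2 h it fell by 4.15 log2 units (SE 0.45, edgeR adjusted p = 1.11e-11), with no overlap.

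At 24 h of 35°C these genes were lower again. FTSZ1 was at 5.93, 1.78 and 2.72 TPM, below every pre-heat library, with a fold change of -2.04 ± 0.40 (edgeR adjusted p = 8.52e-05). MIND1 was at 24.2, 6.75 and 9.67 TPM against 61.6, 60 and 42.5, and RIR2 at 27.5, 17.7 and 24.7 TPM against 60.5, 68.1 and 51. Replicate A was the highest of the 3 for each, and none overlapped. RIR2 fell by 1.27 log2 units (SE 0.35, edgeR adjusted p = 0.0057), a call lost without replicate B of 24 h (-1.10). All 9 listed genes fell at 2 h of 35°C and 8 of them at 24 h, the exception being CYCB1 (-0.93 ± 0.68, edgeR adjusted p = 0.36).

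For the wall, flagellar and iron genes the course at 35°C is given gene by gene. PHC22 was at 82.7, 86.7 and 65.8 TPM before heat, at 9.7, 2.92 and 3.33 TPM at 2 h and at 76.7, 50.9 and 60.9 TPM at 24 h. It fell at 2 h by 3.43 log2 units (SE 0.85, edgeR adjusted p = 0.000764), and at 24 h its libraries overlapped pre-heat. PHC5 was at 62.8, 69.2 and 67.4 TPM before heat and at 26.2, 34 and 31.5 TPM at 2 h, where its fold change of -0.61 ± 0.26 was not called (edgeR adjusted p = 0.0514). It was lowest at 8 h, at 5.67, 8.42 and 9.75 TPM, a fall of 2.96 log2 units (SE 0.28, edgeR adjusted p = 3.79e-13), and was still called at 24 h (-1.39 ± 0.26, edgeR adjusted p = 5.23e-05). There was no overlap with pre-heat at 2 h for PHC22, or at 2 h or 8 h for PHC5. Whether the pherophorins differed in their course was not tested.

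FMG1-B was at 454, 763 and 876 TPM before 35°C and at 261, 407 and 524 TPM at 2 h, where the groups overlapped and the change of -0.29 ± 0.46 was not called (edgeR adjusted p = 0.652). At 24 h it was at 218, 103 and 136 TPM, below all pre-heat libraries, a fall of 2.09 log2 units (SE 0.48, edgeR adjusted p = 0.0009). FEA1 was at 524, 584 and 584 TPM before 35°C and at 362, 500 and 402 TPM at 24 h, and it was not called at any time of 35°C heat (at 24 h -0.33 ± 0.48, edgeR adjusted p = 0.683). Its pre-heat libraries of the 35°C treatment lay above all of those of the 40°C treatment, so its course started from different levels. MSD3 was at 7.48, 8.35 and 9.29 TPM before 35°C and at 1.24, 0.27 and 0.646 TPM at 24 h. It was below pre-heat in every 35°C heat library from 0.5 h on, and fell by 3.40 log2 units at 24 h (SE 0.53, edgeR adjusted p = 2.02e-06).

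When the selection rule was applied to 35°C instead, it gave 20 genes, 0.129% of those tested. They shared 9 genes with the 112, which is 8.04% of the 112 and 45% of the 20. MSD3 and Cre03.g184250 were among these 9, and the cell division genes were not. These counts follow from a threshold on means and carry no test.

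The recovery libraries also took no part in the selection, and each 40°C time was compared with 48 h of recovery, since the 40°C pre-heat libraries had been used. At 2 h the members had split: 45 were called higher than at 48 h (16.7% of all genes were), 26 lower (11.3%), and 41 were not called. The 41 included fitted falls of up to -8.82 log2 units, and 17 of them were under 1 TPM before 40°C heat. At such levels the TPM criterion limits calls, and without it more members were called lower. Not called therefore does not mean unchanged. At 0 h of recovery 0 were higher (16.1%) and 75 lower (12.1%), and at 4 h 60 were higher (13%) and 20 lower (7.74%). At 24 h FMG1-B alone was called, as lower (0.283% of genes higher and 0.0257% lower), with overlapping groups. All these comparisons share the 48 h libraries.

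Levels at 2 h of 40°C recovery depended on the scale. The median of all genes against 48 h was 0.06 log2 units after TMM normalisation, 0.54 with library size alone and 0.99 on log2(TPM + 0.1). Fold changes below are after TMM normalisation. Against them, ratios of TPM values at this time give larger rises and smaller falls. Which scale is nearer to the true levels was not tested. With library size alone or TPM in place of TMM, the division of the members at 2 h into higher and lower moved by less than 1.5 times in either direction.

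All 9 genes of DNA synthesis and the cell cycle were called higher at 2 h of 40°C recovery. FTSZ1 was at 108, 94.4 and 92 TPM at 2 h and at 19, 12.5 and 9.09 TPM at 48 h, with no overlap, and it rose by 1.85 ± 0.39 log2 units (edgeR adjusted p = 2.8e-05). FTSZ2 rose by 2.08 ± 0.36 log2 units (edgeR adjusted p = 7.3e-07) and MINE2 by 1.17 ± 0.36 (edgeR adjusted p = 0.00311). RIR2 was at 268, 277 and 335 TPM at 2 h and at 42.2, 59.3 and 46.7 TPM at 48 h, a rise of 1.55 ± 0.35 (edgeR adjusted p = 0.000101). CDC45 rose by 1.90 ± 0.36 (edgeR adjusted p = 5.09e-06), SMC2 by 1.77 ± 0.32 (edgeR adjusted p = 2.5e-06) and MCM3 by 1.29 ± 0.36 (edgeR adjusted p = 0.00129).

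CYCB1 was at 714, 689 and 861 TPM at 2 h of 40°C recovery and at 1870, 1897 and 1737 TPM at 4 h, the highest level of any member at that time. At 48 h it was at 18.8, 180 and 135 TPM, with replicate A far below the others. The rise at 2 h was 1.73 ± 0.70 log2 units (edgeR adjusted p = 0.0247). It was no longer called without replicate A of 48 h (1.22), without replicate C of 2 h (1.57), or in a fit on the 45 libraries of 40°C alone (1.93). At 4 h it rose by 2.90 ± 0.73 (edgeR adjusted p = 0.000467).

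The wall, flagellar and iron members were among the 26 that were lower at 2 h. FMG1-B was at 0.607, 0.694 and 0.848 TPM at 2 h and at 70.7, 317 and 267 TPM at 48 h, so every library at 2 h was far below every one at 48 h. It was lower by 9.26 log2 units (fold change -9.26 ± 0.70, edgeR adjusted p = 1.16e-18). PHC22 was at 0.168, 0.231 and 0.256 TPM at 2 h and at 56.2, 82.9 and 49.1 TPM at 48 h (-9.12 ± 1.20, edgeR adjusted p = 7.63e-10). PHC5 was at 0.542, 0.745 and 0.445 TPM at 2 h and at 70.9, 62.8 and 67.1 TPM at 48 h (-7.88 ± 0.35, edgeR adjusted p = 3.31e-30). Neither pherophorin had a library at 2 h above 1 TPM. FEA1 was at 4.28, 10.5 and 9.84 TPM at 2 h and at 86.6, 128 and 116 TPM at 48 h (-4.75 ± 0.57, edgeR adjusted p = 4.99e-11), and MSD3 was lower by 2.83 log2 units (fold change -2.83 ± 0.52, edgeR adjusted p = 3.02e-06).

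**Figure D4:**
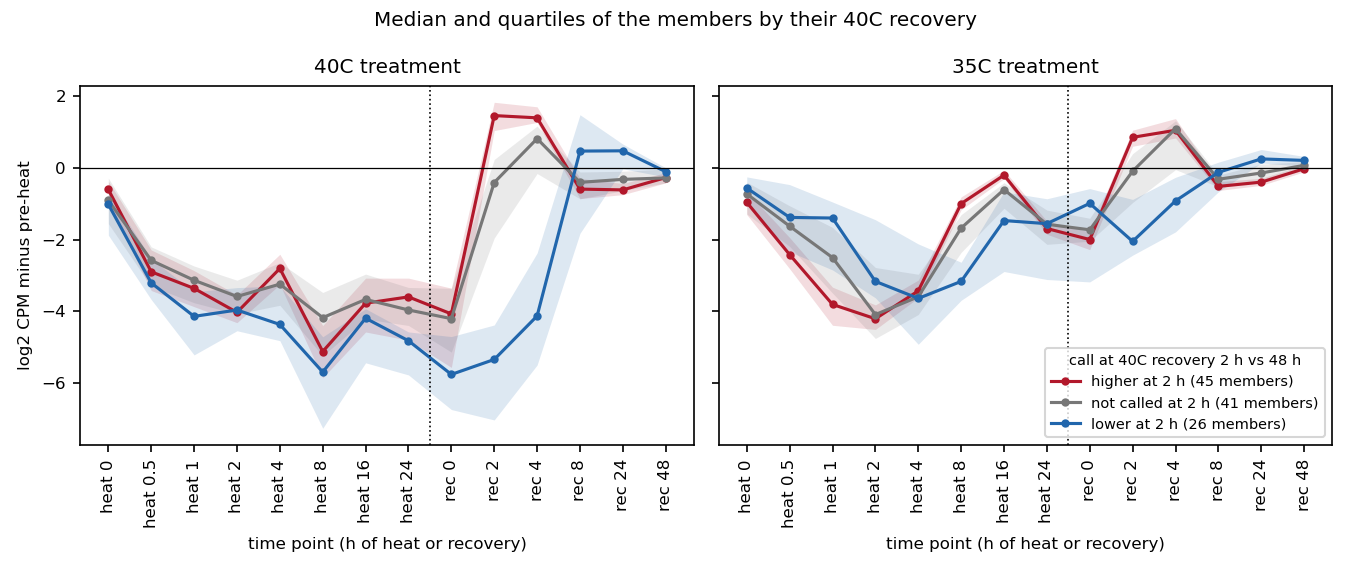
Median (line) and quartiles (band) of log2 CPM minus pre-heat over the members called higher (45), not called (41) and lower (26) at 2 h of 40°C recovery against 48 h, by time point (h), with 40°C on the left and 35°C on the right. The 26 lower members sit at -5.34 at 2 h of 40°C recovery, a low value that follows from the grouping, and at 0.47 at 8 h. At 35°C they are at -3.16 at 8 h of heat, -1.55 at 24 h and -2.05 at 2 h of recovery.

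At 8 h of 40°C recovery 13 members were called higher than at 48 h (6.29% of all genes) and 11 lower (3.13%). PHC22 was then at 399, 355 and 275 TPM, above every 48 h library, with a fold change of 1.98 ± 0.78 (edgeR adjusted p = 0.0411). MSD3 was at 23.8, 12.7 and 11.7 TPM against 4.28, 4.78 and 5.27 at 48 h (1.30 ± 0.46, edgeR adjusted p = 0.0209). FMG1-B was still at 1.44, 4.08 and 5.12 TPM (-6.50 ± 0.60, edgeR adjusted p = 1.02e-13), below all 48 h libraries, and FEA1 at 41.6, 62.2 and 65.9 TPM (-1.47 ± 0.49, edgeR adjusted p = 0.0151). PHC5 was at 45.8, 29.9 and 30.1 TPM (-1.39 ± 0.26, edgeR adjusted p = 1.58e-05), so the pherophorins lay on different sides of their 48 h levels. The count of 13 was 3 without replicate A of 8 h, 6 without any 1 of the 48 h libraries, and 5 in a fit on the 40°C libraries alone. PHC22 lost its call in 5 of these 6 omissions of 1 library and MSD3 in 3. FEA1 lost it without replicate A of 8 h (-1.36), in the fit on the 40°C libraries alone (-1.42) and in limma with either pseudocount (-0.96 and -0.97), and PHC5 in limma (-0.93 and -0.95).

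Members with no symbol showed both courses at larger size. Cre09.g412400 was at 271, 225 and 294 TPM at 2 h of 40°C recovery and at 18.4, 15 and 14.2 TPM at 48 h, the largest rise among members with 5 TPM or more (3.04 ± 0.44 log2 units, edgeR adjusted p = 9.78e-09). Cre16.g652950, Cre16.g678650 and Cre09.g403071 followed with rises of 2.42, 2.31 and 2.28. Cre09.g397623 had 4 counts over the 3 libraries at 2 h and 5465 at 48 h. At 8 h it was at 85.3, 70.9 and 54.8 TPM against 33.3, 20.3 and 13.7 at 48 h, and no call is given for that rise. Its difference between the treatments at 8 h was not called (1.45 ± 0.82, edgeR adjusted p = 0.247). It was the member with the largest fall at 2 h, and its fitted fold change depends on the prior count.

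Other unnamed genes had a course like that of PHC22. Cre14.g611400 was at 0.129, 0.197 and 0.0984 TPM at 2 h, at 155, 127 and 102 TPM at 8 h and at 25.8, 32.2 and 18.4 TPM at 48 h. Cre04.g226600 was at 0.148, 0.113 and 0.264 TPM at 2 h, at 70, 53.3 and 41.6 TPM at 8 h and at 8.78, 12.3 and 7.6 TPM at 48 h. In both the 2 h libraries lay below and the 8 h libraries above all 48 h libraries. Cre01.g011630 and Cre03.g184250 were lower at 2 h (-9.19 and -6.54) and called higher at 8 h (1.47 and 1.08), and Cre07.g321800 was at -5.21 and 2.52. Of the named genes called higher at 8 h, Cre07.g321800 alone kept its call without each of the 6 libraries in turn.

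Cre08.g364751 and Cre12.g544450 were low at both times, as FMG1-B was. Cre08.g364751 was at 0.839, 3.18 and 2.33 TPM at 8 h and at 3.32, 20.5 and 23.3 TPM at 48 h, with replicate A low in each group (-3.45 ± 0.55, edgeR adjusted p = 6.24e-07). Cre12.g544450 is annotated as an ABC transporter and as a flagellar associated protein. It was at 6.87, 2.13 and 2.11 TPM at 8 h and at 60.8, 6.03 and 8.41 TPM at 48 h. Its groups overlapped, replicate A of 48 h was far above the others, and its call (-3.14 ± 1.10, edgeR adjusted p = 0.0204) was lost without that library (-1.42). Cre14.g619450 was not called at 2 h (-0.15 ± 0.37, edgeR adjusted p = 0.732) and lower at 8 h (-1.93 ± 0.40, edgeR adjusted p = 7.28e-05). Its mean TPM at 2 h was above that at 48 h, so its sign at 2 h flips between the scales, as that of Cre12.g486750 does.

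The difference between the treatments in recovery was tested as the change from 48 h to a given time at 40°C minus the same change at 35°C, with no TPM criterion. At 2 h 23 members were lower after 40°C (12.6% of all genes) and 5 higher (8.08%). With the replicate letter as a block these counts were 25 and 13, and with library size alone 23 and 9. PHC22 differed by -6.66 ± 1.38 log2 units (edgeR adjusted p = 8.6e-05), PHC5 by -5.75 ± 0.40 (edgeR adjusted p = 6.45e-19), FMG1-B by -6.36 ± 0.78 (edgeR adjusted p = 7.56e-10) and FEA1 by -3.92 ± 0.71 (edgeR adjusted p = 9.37e-06). At 2 h of 35°C recovery FMG1-B was at 252, 209 and 223 TPM and PHC5 at 33.2, 22.5 and 28.1 TPM, far above their values after 40°C. The 48 h mean of FMG1-B was 218 TPM after 40°C and 1042 TPM after 35°C, so its difference rests on unequal references. In limma on log2(TPM + 1) the counts were 13 lower and 15 higher, and on log2(TPM + 0.1) they were 21 and 24. For the block, library size and limma the shares of all genes are not given here, so these counts are not read against them.

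**Figure D5:**
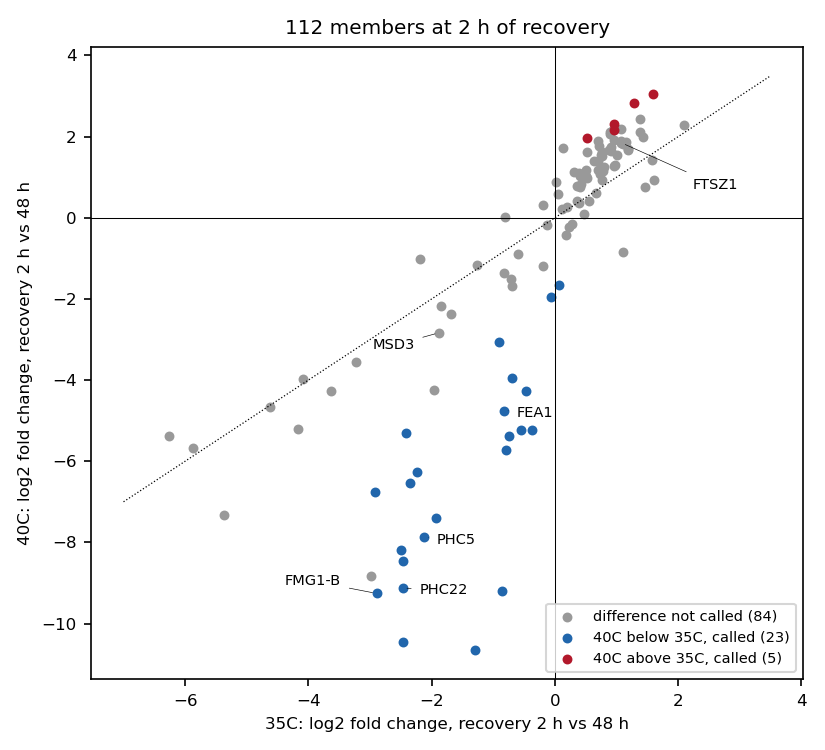
Log2 fold change at 2 h against 48 h of recovery for the 112 members, with 35°C on the horizontal and 40°C on the vertical axis. Blue points (23) are members called lower and red points (5) higher at 40°C than at 35°C, and PHC22, PHC5, FMG1-B and FEA1 lie well below the dotted line of equal change.

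For the cell division genes no difference between the treatments was called at 2 h. FTSZ1 differed by 0.77 ± 0.53 (edgeR adjusted p = 0.282), RIR2 by 0.55 ± 0.49 (edgeR adjusted p = 0.417) and CYCB1 by 1.60 ± 0.96 (edgeR adjusted p = 0.209). CDC45 differed by 1.20 ± 0.50 (edgeR adjusted p = 0.0558), FTSZ2 by 1.18 ± 0.49 (edgeR adjusted p = 0.0565) and SMC2 by 1.05 ± 0.45 (edgeR adjusted p = 0.0612). MIND1, MINE2 and MCM3 were not called either, and the estimate was positive for every listed division gene. These errors leave room for differences of more than 1 log2 unit, so an equal change after both treatments is not shown. Cre09.g412400 (1.45) and Cre16.g678650 (1.35) were among the 5 higher members, the former with a call lost in 10 of 12 omissions of 1 library. At 8 h 8 members were lower after 40°C (3.10% of all genes) and 7 higher (6.19%), FMG1-B by -4.50 ± 0.71 (edgeR adjusted p = 3.2e-06) and FEA1 by -2.04 ± 0.69 (edgeR adjusted p = 0.0338), the latter lost in 7 omissions of 1 library. At 4 h 25 were lower (6.91%) and 3 higher (6.24%).

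At 2 h of 35°C recovery 16 members were called higher than before heat (3.22% of all genes) and 15 lower (5.21%). These counts were 30 and 13 with library size alone, and 37 and 12 on log2(TPM + 1) and 43 and 12 on log2(TPM + 0.1) in limma. The shares of all genes under these settings are not given here. A shift of all genes between scales was thus not separated from one of the members. By the call at 2 h of 40°C recovery, made on other libraries, 13 of the 45 higher members were called higher and 0 lower at 35°C. Of the 26 lower members 0 were called higher and 14 lower, and of the 41 not called 3 were higher and 1 lower. FTSZ1 was at 47.6, 52.6 and 46.9 TPM, above all its pre-heat libraries (1.04 ± 0.38, edgeR adjusted p = 0.0243), a call lost in 4 of the 6 omissions of 1 library (0.97 to 1.03). PHC5 was at 33.2, 22.5 and 28.1 TPM, below all of its own (-1.87 ± 0.26, edgeR adjusted p = 4.61e-08). At 4 h 47 members were higher (3.73%) and 6 lower (3.35%), and at 8 h 0 (0.167%) and 2 (0.605%). At 0 h of recovery 0 were higher (5%) and 55 lower (6.09%), at 24 h 3 (0.0836%) and 0 (0%), and at 48 h none was called (0%).

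The same division was applied to 35°C heat, as a description with no test of the difference between the classes. At 8 h of 35°C 10 of the 45 higher members, 21 of the 26 lower members and 15 of the 41 others were called lower than before heat (4.34% of all genes). At 16 h these counts were 0, 12 and 3 (1.37%). The medians of the 45 and the 26 were -0.99 and -3.16 at 8 h and -0.20 and -1.47 at 16 h. The 26 had a higher median level before heat (7.77 TPM against 2.69 and 1.25 for the 45 and the 41), and 1 of them was under 1 TPM against 9 and 17, so fewer of them were limited by the TPM criterion.

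The gene lists put the members beside their pathways. The list counts below stand against all genes, of which 6.38% were lower and 2.52% higher at 2 h of 35°C. At 40°C recovery 16.7% were higher and 11.3% lower at 2 h, and 6.29% higher and 3.13% lower at 8 h. In the list of 122 DNA synthesis and cell cycle genes, 82 were called lower and 0 higher at 2 h of 35°C, with a median of -2.35. At 2 h of 40°C recovery 107 were higher and 1 lower, with a median of 1.56. The 9 members were 7.38% of it, and 68 of the list were at or under the threshold at 1 or more of the 7 times of 40°C heat. That count of 68 uses the libraries of the selection, and the share of all genes for it is not given. It is a description and carries no result about the list. Over 50 cell wall proteins, of which PHC5 and PHC22 were members, 24 were lower and 1 higher at 2 h of 35°C, 22 lower and 2 higher at 2 h of 40°C recovery, and 31 higher and 3 lower at 8 h.

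FMG1-B was the 1 member among 63 flagellar genes, a list made from gene symbols. Of these 63, 3 were lower and 2 higher at 2 h of 35°C, shares near those of all genes. At 2 h of 40°C recovery 24 were lower and 1 higher. Cre12.g544450, which has a flagellar annotation but no symbol, was outside the list. FEA1 was the 1 member of 11 genes of iron and metals, of which 6 were lower and 0 higher at 2 h of 40°C recovery. MSD3 was 1 of 126 genes of reactive oxygen species scavenging, HFO8 1 of 17 histones tested, and Cre17.g744097, a glycosyltransferase-like gene under 1 TPM, 1 of 24 for wall modification. The other 11 lists, among them photosynthesis, carbon fixation, pigments, starch, heat shock proteins and gamete genes, held 0 members. Members were 0.721% of all genes and 0.794% of the scavenging list. At the share of all genes, lists of these sizes would hold 1 member or none, so counts of 1 or 0 carry no result about a pathway.

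All 112 members matched a locus of the RefSeq annotation of assembly Chlamydomonas_reinhardtii_v5.5, which was used for gene order alone. In it 3 pairs of members were direct neighbours, Cre13.g588250 with Cre13.g588271, Cre17.g724000 with Cre17.g724050, and Cre07.g321750 with Cre07.g321800. Another pair on chromosome 9 had 1 gene between them, and 1 on chromosome 17 had 2. Chromosomes 12, 16 and 17 held the most members, 13, 12 and 11.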

How the data were processed

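RNA-seq counts and TPM were used for 90 libraries, 30 groups of 3 biological replicates. Per the labels and methods, the authors filtered reads, aligned them with STAR to version v5.6 of the genome, kept those that mapped to 1 locus and obtained gene counts from HTSeq. The version of each program was not given in the sources used here. Raw counts make up the deposited count table. The deposited TPM values are the authors' counts divided by gene length and scaled to 1000000 per library. No column of another series was present, and reads were not used.

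Genes with 10 or more counts in 9 or more of the 90 libraries were kept. TMM factors and log2 CPM (prior count 2) came from edgeR 4.0.16 in R 4.3.3, and members were selected as the report says. Tests were edgeR's quasi-likelihood F-test in 1 model with a mean per group over all 90 libraries, with Benjamini-Hochberg adjustment over 15541 genes. A call needed an adjusted p under 0.05, a log2 fold change beyond 1 in either direction and, except for the difference of treatments, a mean difference of 1 TPM. SE is the fold change divided by the square root of F. No set test was run. The scripts were tested on simulated data.

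Members, lists and tests were chosen with earlier results of these data known. Named genes were, by rule, up to 4 members per list, the 10 most abundant, the 6 with the deepest fall, those with the largest changes in 3 comparisons, and those at the edge of the selection. The other genes of the DNA synthesis list, Cre12.g506750 and the neighbouring pairs were chosen after their values were seen.

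Alternatives were DESeq2 1.42.0, its size factors, library size alone, no low-count filter, other prior counts and thresholds, a fit per treatment, no TPM criterion, limma 3.58.1 on log2(TPM + 1) and log2(TPM + 0.1), a replicate block, and omission of each library. The sources do not say that a letter marks the same culture. By the correlation of deviations, same-letter libraries paired (every correlation over 0.1) for 35°C at 0.5 h (0.147 to 0.448) and 2 h (0.110 to 0.170) and for 40°C recovery at 2 h (0.180 to 0.302). They did not at 35°C 24 h (lowest 0.071), 35°C recovery 2 h (lowest 0.038) or 40°C recovery 8 h (lowest -0.039). Replicate spread was 5.26 to 300.1 times counting error (chi-square per degree of freedom), over totals of 10872030 to 35917831 counts.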

Additional observations from a re-analysis of the deposited data

Results flagged for a closer look

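Results in which the change during recovery differed between the 40°C and 35°C treatments, by the test of that difference, were these. The treatments used separate cultures, so temperature and culture set cannot be told apart. Groups of 3 were too small to be tested for single outlying samples.

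At 2 h against 48 h, 5 members were higher (8.08% of all genes) and 23 lower (12.6%) after 40°C. Among the wall, flagellar and iron genes the differences on the log2 scale were -5.75 for PHC5, -6.66 for PHC22, -6.36 for FMG1-B and -3.92 for FEA1. Members with no symbol differed by -3.80 (Cre17.g698532), -8.33 (Cre01.g011630), -9.37 (Cre09.g397623), -4.19 (Cre03.g184250), -3.83 (Cre04.g226600), -5.999 (Cre14.g611400) and -4.69 (Cre08.g364751). The fitted value of Cre09.g397623 rests on 4 counts at 2 h of 40°C recovery. Cre09.g412400 (1.45) and Cre16.g678650 (1.35) were higher after 40°C. The call of Cre09.g412400 was lost in DESeq2, without the low-count filter and in 10 of the 12 omissions of 1 library, with values of 1.34 to 1.54 in those omissions.

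At 8 h, 7 members were higher (6.19% of all genes) and 8 lower (3.10%) after 40°C. The count of higher members was near the share of all genes, and DESeq2 called 2 higher. FMG1-B differed by -4.50, FEA1 by -2.04 and Cre08.g364751 by -2.06, and MSD3 by 1.89 and Cre07.g321800 by 3.13. FMG1-B kept its call under every alternative run, and each of the other genes lost it in 1 or more omissions of a library, Cre07.g321800 without replicate A of 40°C recovery 8 h (2.31) or replicate B of 35°C recovery 8 h (2.79).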

How the results depend on the processing

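The selection gave 175 genes when counts were scaled by library size alone, 289 and 44 at thresholds of -1.5 and -2.5, 45 on log2(TPM + 1), 13 with the 0 h time point added, and 98 to 146 without 1 replicate letter. Of the 175 genes 104 were in the set, and of the 45 genes 33.

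Without the TPM criterion 90 members were lower at 24 h of 35°C, 24 at 35°C recovery 2 h and 40 at 40°C recovery 2 h, where 5.95%, 8.41% and 20.9% of all genes were. Higher members at 35°C recovery 2 h numbered 30 with library size alone and 37 and 43 in limma on log2(TPM + 1) and log2(TPM + 0.1). At 40°C recovery 8 h, 5 were higher in a fit on that treatment alone, and 7 were lower in limma with either pseudocount. For the difference of treatments at 2 h, higher members numbered 9 with library size alone, 13 with the replicate block and 15 and 24 in limma, and lower ones 13 in limma on log2(TPM + 1). At 8 h, limma gave 18 and 12 higher and 2 and 4 lower, and DESeq2 2 higher. The cause of these shifts was not tested, apart from the wider scope of a test with no TPM criterion. For the other settings of this section the share of all genes is not given. A shift common to all genes was thus not separated from one of the members.

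Omission of 1 library gave 54 to 63, 74 to 79 and 45 to 60 lower members at 0.5, 2 and 24 h of 35°C, and 13 to 18 higher and 10 to 19 lower at 35°C recovery 2 h. At 40°C recovery it gave 39 to 48 higher and 24 to 26 lower at 2 h, and 3 to 13 and 9 to 15 at 8 h. For the difference it gave 1 to 5 higher and 21 to 24 lower at 2 h, and 2 to 6 and 5 to 8 at 8 h. The higher count at 2 h was 1 without replicate C of 40°C recovery 48 h and 2 without replicate B of 35°C recovery 48 h or C of 35°C recovery 2 h. At 8 h it was 2 without replicate A of 40°C recovery 8 h or B of 35°C recovery 8 h.

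With the replicate block, lower members numbered 62, 78 and 59 at 0.5, 2 and 24 h of 35°C, with 46 higher and 26 lower at 40°C recovery 2 h, and, where letters did not pair the libraries, 16 and 17 at 35°C recovery 2 h and 17 and 11 at 40°C recovery 8 h. Of 2100 values of 134 named results, 1981 kept their direction and side of the threshold, 119 lost the call and 0 reversed, in 28 results. Only results with a call entered this count, so a reversal was unlikely from the start and gained calls were not counted. Members under 1 TPM, 26 of 112 at 35°C, are limited by the TPM criterion and by depth.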
